A study of Mus musculus with 11 samples.

Results

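MHC class II genes let a cell show peptides from swallowed or internalised material to helper T lymphocytes, and 8 of them were followed here through the small intestine of mice. They were taken by symbol from the 24294 gene symbols of the deposited table, and all 8 were found: the chains H2-Aa, H2-Ab1 and H2-Eb1, the peptide loading genes H2-DMa, H2-DMb1 and H2-DMb2, the invariant chain Cd74, and Ciita. RNA was sequenced from 11 libraries. In the labels they are 3 ND, 4 HFD and 4 HLJDD libraries of mouse intestine, and the series' design text gives the small intestine. The series title concerns obese mice and Huang Lian Jiedu Decoction, a Chinese herbal formula whose initials match HLJDD. ND and HFD are not spelled out, and the diet of the HLJDD mice, their dose, strain, sex, age and genotype, the stretch of intestine taken and whether each library came from its own animal are not stated by the sources used here. P-values therefore measure only the spread between libraries, which may be technical. Values are FPKM, fragments scaled to the length of the gene and to the total of the library. The test was limma on log2(FPKM + 1) with all 11 libraries in 1 fit, over the 10764 genes that reached 1 FPKM in 3 or more libraries, and a gene was called at a Benjamini-Hochberg adjusted p under 0.05. This scale understates the change of low genes. All 8 genes were tested, but H2-DMb2 passed that filter through HFD and HLJDD libraries alone, and so counts over the 8 genes are given as descriptions.

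In background, an alpha chain and a beta chain form the class II molecule, which the invariant chain escorts to the endosome and keeps closed. There proteases trim the invariant chain to a short peptide, and the DM heterodimer (H2-DMa with H2-DMb1 or H2-DMb2) exchanges that peptide for others. Ciita is the transactivator that the promoter complex of RFX, CREB and NF-Y recruits, and interferon gamma is its main inducer outside the professional antigen presenting cells. B lymphocytes, dendritic cells and macrophages carry class II constitutively, and enterocytes of the small intestine can also make it.

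In RefSeq (GRCm38.p6) 6 of the 8 genes lie in the class II region of chromosome 17: H2-DMa at chr17:34119693-34139101, H2-DMb2 at chr17:34143229-34151553, H2-DMb1 at chr17:34153191-34160229, H2-Ab1 at chr17:34263227-34269418, H2-Aa at chr17:34282744-34287823 and H2-Eb1 at chr17:34305867-34316674. Ciita lies at chr16:10480014-10531064. Class II promoters are known for an X box and a Y box at a fixed spacing, the stretch that the complex with Ciita occupies, and they are shown because the members moved in different patterns. RefSeq's promoter table (250 bases before each start, 300 bases in all) held 5 of the 8 genes. H2-Ab1, Cd74 and Ciita had no entry. The stretches below run 5′ to 3′ on each gene's own strand over 70 bases of GRCm38.p6, and capitals mark the 5-base core of an X box-like word that ends in AAC and the Y box core ATTGG, with H2-Oa and H2-Ob, chains of the DO heterodimer that modulates DM, for comparison.
H2-Aa, chr17:34287857-34287926, minus strand: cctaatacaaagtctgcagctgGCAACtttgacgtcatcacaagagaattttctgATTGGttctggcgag
H2-Eb1, chr17:34305753-34305822, plus strand: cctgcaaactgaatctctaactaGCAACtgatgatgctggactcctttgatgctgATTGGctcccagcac
H2-DMb1, chr17:34153075-34153144, plus strand: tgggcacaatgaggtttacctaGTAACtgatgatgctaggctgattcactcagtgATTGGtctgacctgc
H2-DMb2, chr17:34145104-34145173, plus strand: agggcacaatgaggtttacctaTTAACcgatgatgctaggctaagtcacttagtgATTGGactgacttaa
H2-Oa, chr17:34092281-34092350, plus strand: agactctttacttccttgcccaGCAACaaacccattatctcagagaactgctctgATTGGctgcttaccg
H2-Ob, chr17:34238793-34238862, plus strand: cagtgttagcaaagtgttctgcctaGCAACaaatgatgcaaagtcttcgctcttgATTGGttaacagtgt

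The 2 cores were 28 bases apart in H2-Aa, H2-DMb1, H2-DMb2 and H2-Oa, 27 in H2-Eb1 and 25 in H2-Ob. The ATTGG core began 48 bases before the start of H2-Aa, 59 before that of H2-Eb1, 61 before that of H2-DMb1 and 90 before that of H2-DMb2. The start used by the promoter table for H2-DMb2 lies inside the interval given above for this gene, not at its first base. These words were chosen after the promoters were read, and a match is a description of letters. On both strands, ATTGG stood in 37.4% of all 32851 promoter entries of the same length and GCAAC in 35.2%. GCAAC followed by ATTGG on the same strand after 15 to 35 bases stood in 1.02% of entries, among them H2-Aa, H2-Eb1, H2-Oa, H2-Ob and H2-Eb2. The longest word common to the entries of H2-Eb1, H2-DMb1 and H2-DMb2 had 9 bases, GATGATGCT, and lay just after the X box core. Searched on both strands, it stood in 90 entries (0.274%). The H2-DMb1 and H2-DMb2 stretches are closely alike in letters, while their levels across the libraries were not. Neither of the 2 entries of H2-DMa held the pair of cores.

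The libraries held 30100481 to 37940645 reads, recovered as whole numbers from the steps of the FPKM values. Mitochondrial transcripts took 10.4% to 19.3% of reads in 9 libraries, but 32.4% in HFD replicate 1 and 40.7% in HLJDD replicate 2. As mitochondrial reads enter the total, the FPKM of every other gene is lower in those libraries, and median-ratio scaled values are given beside the affected results. Over all genes tested, the median log2 difference from ND was -0.21 in HFD and -0.13 in HLJDD, and that of HLJDD from HFD was 0.061. HFD replicate 4 and HLJDD replicate 2 were the lowest libraries of their groups for all 8 members. Summed over 8 epithelial markers, levels were 4245 to 6546 FPKM in all 11 libraries, and Krt8 and Krt20, keratins of the gut epithelium, were its most abundant genes, as the labelled tissue would have.

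The classical chains were abundant in ND and much lower in most other libraries. H2-Aa, the alpha chain of the I-A molecule, stood at 618, 667 and 673 FPKM in ND replicates 1 to 3. In HFD replicates 1 to 4 it stood at 264, 407, 163 and 31.9 FPKM, and in the HLJDD replicates at 117, 24.5, 142 and 98.5 FPKM. Every HFD and HLJDD library lay below every ND library, whereas the HFD and HLJDD ranges overlapped. The means were 653 ± 29.8 FPKM in ND (SD, n = 3), 217 ± 159 in HFD (SD, n = 4) and 95.3 ± 50.4 in HLJDD (SD, n = 4). The coefficient of variation was 4.56% in ND, 73.3% in HFD and 52.9% in HLJDD. H2-Aa fell by 3.02 (SE 0.75) on the log2 scale in HLJDD against ND, with an adjusted p of 0.0229 in limma. The difference of HFD from ND was -2.07 (SE 0.75), and it missed the threshold (adjusted p = 0.0752). In bulk tissue, fewer cells of a type and less RNA per cell cannot be told apart.

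H2-Ab1, the beta chain of I-A, had the same arrangement. It stood at 473, 541 and 546 FPKM in ND, at 158, 328, 138 and 34.3 in HFD, and at 93.5, 20.5, 116 and 72.1 in HLJDD. Again no HFD or HLJDD library reached the lowest ND library. It fell by 3.01 (SE 0.67) in HLJDD against ND (limma, adjusted p = 0.0133), and its difference for HFD against ND was -2.04 (SE 0.67, adjusted p = 0.0561). H2-Eb1, the beta chain of I-E, stood at 207, 228 and 243 FPKM in ND, at 128, 194, 77.1 and 19.1 in HFD, and at 62.3, 14.4, 74.4 and 48.7 in HLJDD. As deposited, HFD replicate 2 came close to the lowest ND library, and none reached it. After median-ratio scaling HFD replicate 2 stood at 184 for H2-Eb1 and lay above ND replicate 1, at 176. H2-Eb1 fell by 2.37 (SE 0.68) in HLJDD against ND (limma, adjusted p = 0.0414), and its difference for HFD against ND was -1.51 (SE 0.68, adjusted p = 0.129).

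Cd74, whose product is the invariant chain, was the most abundant member per length. Its levels were 961, 1079 and 1166 FPKM in ND, 511, 867, 336 and 61.2 in HFD, and 239.8, 54.4, 297 and 181 in HLJDD. As deposited, the highest HFD library lay under the lowest ND library, and HFD replicates 1, 2 and 3 lay above every HLJDD library. After median-ratio scaling Cd74 stood at 822 in HFD replicate 2 and 816 in ND replicate 1, so HFD and ND overlapped. Cd74 fell by 2.70 (SE 0.76) in HLJDD against ND (limma, adjusted p = 0.0384), a call that limma-voom on the recovered reads did not make (adjusted p = 0.0521). For HFD against ND its difference was -1.78 (SE 0.76, adjusted p = 0.114).

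The peptide loading genes divided into 1 gene that was called in both comparisons with ND, 1 called in HLJDD against ND alone and 1 whose values went the other way. H2-DMb1, a beta chain of DM, stood at 74.9, 80.7 and 78.0 FPKM in ND, at 12.6, 45.9, 15.1 and 3.68 in HFD, and at 7.54, 2.87, 11.4 and 5.27 in HLJDD. No HFD or HLJDD library reached ND, and HFD replicate 2 was the nearest. H2-DMb1 fell by 2.41 (SE 0.59) in HFD against ND (limma, adjusted p = 0.0181) and by 3.47 (SE 0.59) in HLJDD against ND (adjusted p = 0.0034). The means were 77.8 ± 2.89 FPKM in ND (SD, n = 3), 19.3 ± 18.4 in HFD (SD, n = 4) and 6.76 ± 3.61 in HLJDD (SD, n = 4).

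H2-DMb2, the second beta chain of DM, was close to absent from ND, at 0.261, 0.425 and 0.191 FPKM, which rest on 13, 22 and 10 reads. In HFD it stood at 24.3, 15.5, 5.10 and 0.418 FPKM (1093, 739, 255 and 22 reads), and in HLJDD at 10.4, 0.306, 11.95 and 11.9 FPKM (546, 13, 640 and 620 reads). HFD replicates 1 to 3 and HLJDD replicates 1, 3 and 4 were far above ND, while HFD replicate 4 and HLJDD replicate 2 lay within or near the ND range, so that the groups overlapped. Relative to the ND mean, the 6 higher libraries held 17.4 to 83.2 times as much, and HFD replicate 4 and HLJDD replicate 2 held 1.43 and 1.05 times as much. The group differences were 2.59 (SE 0.94, adjusted p = 0.0763) for HFD against ND and 2.46 (SE 0.94, adjusted p = 0.111) for HLJDD against ND, and neither was called by limma. Without HFD replicate 4 the first was 3.41 (adjusted p = 0.0161), and without HLJDD replicate 2 the second was 3.27 (adjusted p = 0.0249). Each library left out was the lowest of its group for H2-DMb2, so these calls are descriptions. The transcripts of H2-DMb1 and H2-DMb2 share 369 words of 50 bases, 22.7% of those of H2-DMb1, and reads from those stretches may have been split between the genes, so the values of both are uncertain to that extent.

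H2-DMa, the alpha chain of DM, stood at 6.86, 7.96 and 7.80 FPKM in ND, at 3.43, 7.11, 2.89 and 0.783 in HFD, and at 2.04, 0.766, 2.78 and 1.64 in HLJDD. HFD replicate 2 lay within the ND range, and all HLJDD libraries lay below it. H2-DMa fell by 1.66 (SE 0.40) in HLJDD against ND (limma, adjusted p = 0.0199), and its difference for HFD against ND was -1.10 (SE 0.40, adjusted p = 0.0748). The FPKM of H2-DMa implies a gene length of 8325 bases, against 2005 for its longest coding transcript in GENCODE M21. Its level, and that of Ciita, was therefore not set against the levels of other members.

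Ciita, the transactivator, did not follow the chains in size. It stood at 1.72, 2.65 and 3.13 FPKM in ND (593 to 1136 reads), at 2.26, 4.01, 1.48 and 0.277 in HFD, and at 1.85, 0.207, 1.93 and 2.06 in HLJDD. The values of the groups interleaved, HFD replicate 2 was the highest library of all 11, and HFD replicate 4 and HLJDD replicate 2 were the lowest. The differences were -0.36 (SE 0.42, adjusted p = 0.533) for HFD against ND and -0.55 (SE 0.42, adjusted p = 0.413) for HLJDD against ND in limma, neither called.

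**Figure D1:**
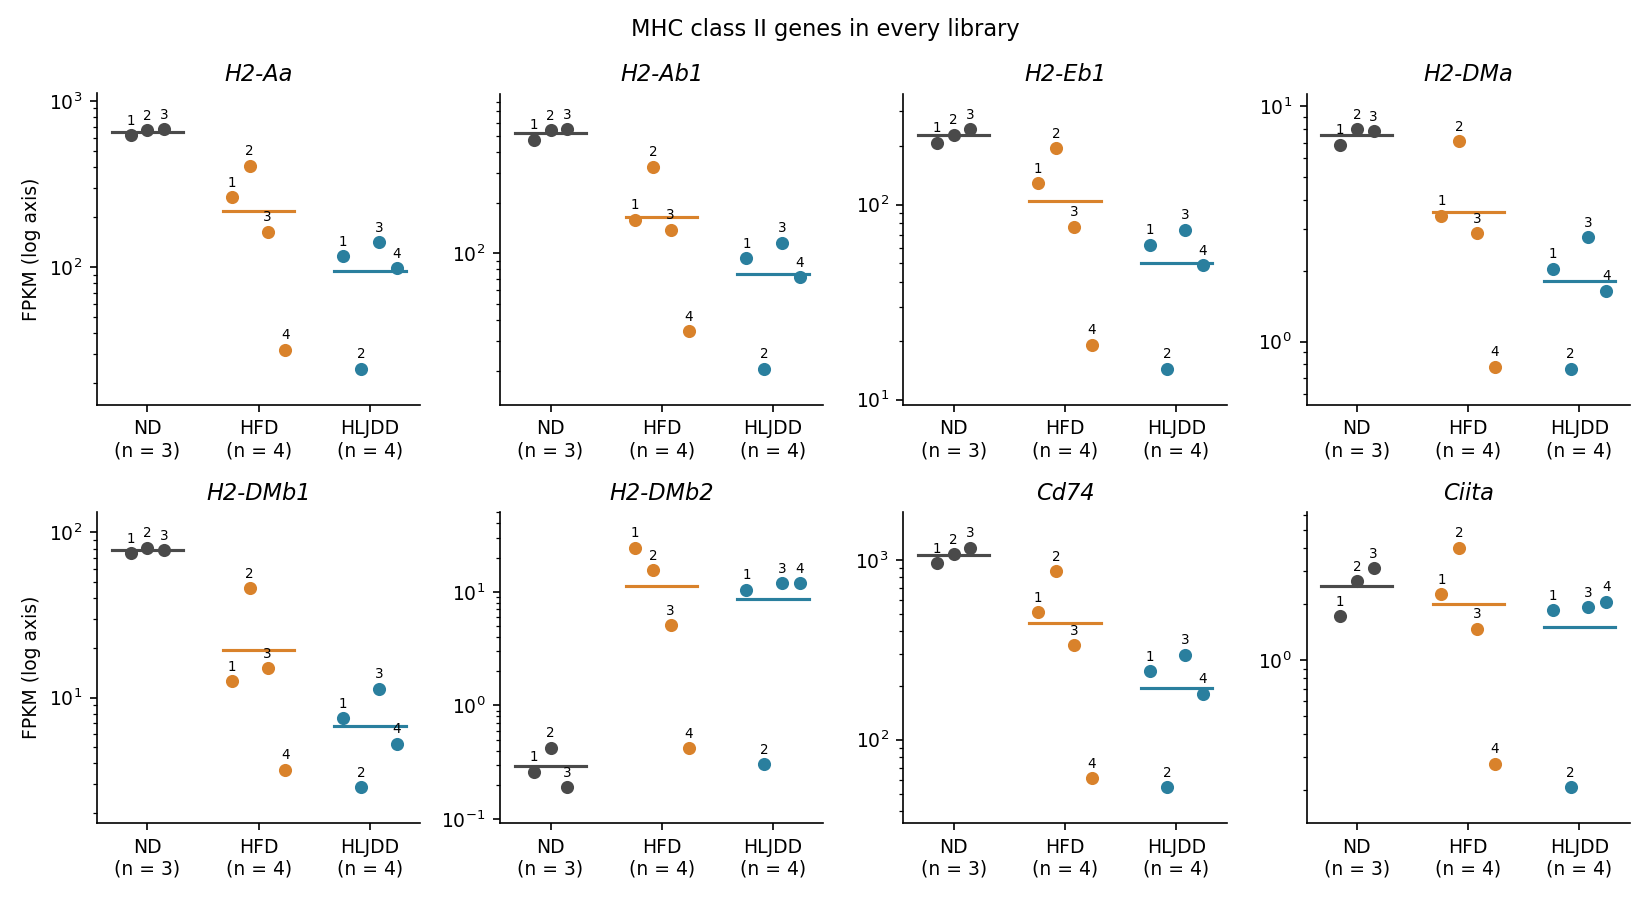
FPKM of each class II gene (log axis) in every library, with replicate numbers, and the group mean as a line (ND n = 3, HFD n = 4, HLJDD n = 4). H2-Aa, H2-Ab1, H2-Eb1, H2-DMb1 and Cd74 are highest in the 3 ND libraries, H2-DMb2 is near 0 there, and HFD replicate 4 and HLJDD replicate 2 are the lowest of their groups for every gene.

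Taken per length within ND, the order was Cd74, H2-Aa, H2-Ab1, H2-Eb1, H2-DMb1 and H2-DMb2, and no neighbours in that order overlapped over the 3 libraries. In HFD the ranges of Cd74, H2-Aa, H2-Ab1 and H2-Eb1 overlapped across libraries. Within each HFD library Cd74 was above H2-Aa, and H2-Eb1 was below H2-Ab1, while H2-Ab1 lay above H2-Aa in HFD replicate 4 and below it in the others. H2-DMb2 exceeded H2-DMb1 in HFD replicate 1 and in HLJDD replicates 1, 3 and 4.

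For HFD against ND, which asks how the HFD group differs from ND, 1 of the 8 members was called, H2-DMb1, and it was lower. Over all genes, 11.5% were called lower and 5.06% higher (1241 and 545 genes), so the count of members is near the background. With median-ratio scaling 1228 genes (11.4%) were called lower and 1248 (11.6%) higher, 23% in all, and the count of members was again 1, lower. At an unadjusted p under 0.05 stood 7 of the 8 members (6 lower, with H2-DMb2 higher) and 3950 of 10764 genes. H2-Aa, H2-Ab1, H2-Eb1, H2-DMb1 and Cd74 did not overlap between the groups, all in the lower direction. After median-ratio scaling this held for 3 of them, H2-Aa, H2-Ab1 and H2-DMb1. As deposited, the same held for 32.9% of all genes, with 9.57% in the higher direction. The median difference of the members was -1.65, against -0.21 over all genes. The call of H2-DMb1 was lost without ND replicate 1 (adjusted p = 0.0689) or ND replicate 2 (0.071). The count of members called was 4, all lower, without HFD replicate 2, with 1739 of all genes called. It was 4 without HLJDD replicate 2, with H2-DMb2 among them as higher, and 3317 of all genes were called. It was 2 without HFD replicate 4, again with H2-DMb2 higher, and 1611 of all genes were called.

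For HLJDD against ND, 6 of the 8 members fell: H2-Aa, H2-Ab1, H2-Eb1, H2-DMa, H2-DMb1 and Cd74. The share of all genes called lower was 7.79%, and the share called higher was 4.1%. Those 6 members did not overlap between the groups, against 21.3% of all genes in that direction and 8.3% in the other. The median difference was -2.54 over the 8 members and -0.13 over all genes tested. After median-ratio scaling, which shifts that second median to about 0, the same number of members was called, with 9.18% of all genes called lower and 8.61% higher. Limma-voom on the recovered reads called 4 of the 8 members, without H2-Eb1 and Cd74 (adjusted p = 0.0521 for both). With no expression filter 1 member was called, H2-DMb1, and without HFD replicate 1 and HLJDD replicate 2 together H2-Eb1 (0.0631) and Cd74 (0.0637) lost their calls. H2-DMb1 stayed past the threshold whichever library was left out. H2-Ab1 lost its call without ND replicate 1 or 2, H2-Aa without any ND library, and H2-DMa without any ND library or HLJDD replicate 4. H2-Eb1 and Cd74 lost theirs when any ND library, HFD replicate 3 or HLJDD replicate 1, 2 or 4 was left out. The adjusted p of these was up to 0.128. Leaving out 1 library, 1 to 7 members and 470 to 1696 of all genes were called. H2-DMb2 was among these members, as higher, without HFD replicate 4 or HLJDD replicate 2.

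HFD and HLJDD share the ND libraries as their reference, so their changes are not independent of each other. The direct comparison of HLJDD with HFD asks what differs in the HLJDD group. There 0 of the 8 members and 0 of 10764 genes (0%) were called in limma, and 0 members in limma-voom on the recovered reads. At an unadjusted p under 0.05 stood 0 members and 186 of all genes. The differences ran from -0.13 (SE 0.87) for H2-DMb2 to -1.06 (SE 0.55) for H2-DMb1, and the values of the groups overlapped for all 8 members. H2-Aa differed by -0.94 (SE 0.69), H2-Ab1 by -0.97 (SE 0.62), Cd74 by -0.92 (SE 0.70) and Ciita by -0.19 (SE 0.39). Without HFD replicate 1 and HLJDD replicate 2, those of highest mitochondrial share, the sign of H2-DMb2 and of Ciita was positive (1.25 and 0.23, neither called).

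**Figure D2:**
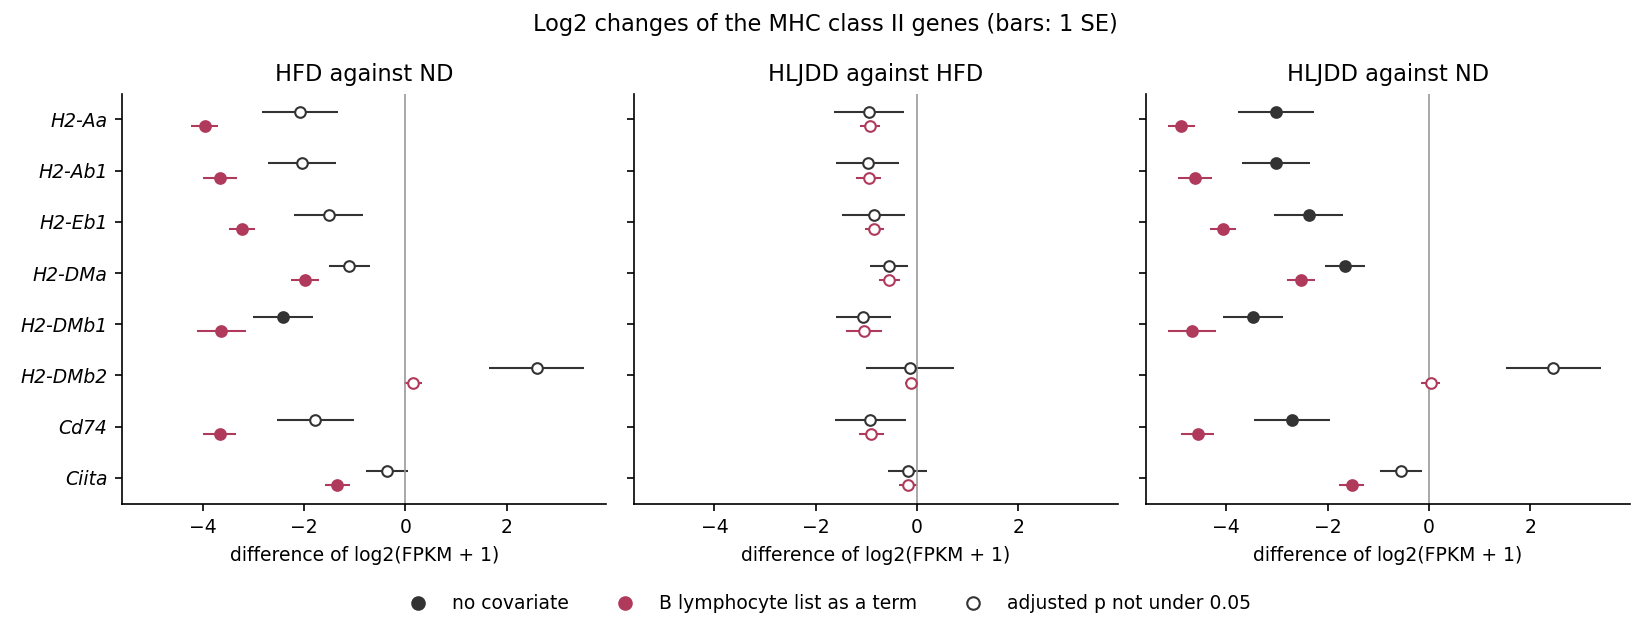
Log2 differences of the 8 members in the 3 comparisons, with bars of 1 SE, from the limma fit without a covariate (dark) and with the mean log2 level of 10 B lymphocyte genes as a covariate (red). Filled points have an adjusted p under 0.05, and in HLJDD against HFD no point is filled.

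The spread within HFD and HLJDD moved with B lymphocyte markers, but not with these alone. Macrophage markers were also lowest of their groups in HFD replicate 4 and HLJDD replicate 2, at 20.3 and 20.5 FPKM. Dendritic cell and T lymphocyte markers were lowest of their groups there too. The B lymphocyte markers are described first. Summed over 10 of them, led by Cd79a and Cd79b, levels were 3.89, 2.86 and 1.68 FPKM in ND, 241, 159.8, 56.3 and 1.77 in HFD, and 115, 4.31, 128 and 102 in HLJDD. HFD replicate 4 and HLJDD replicate 2 were therefore at the level of ND, and the other HFD and HLJDD libraries were far above it. Cd79a, a chain of the B cell receptor complex, stood at 1.31 FPKM in HFD replicate 4 and 2.19 in HLJDD replicate 2, and at 99.3 FPKM in HFD replicate 1. None of the 10 genes was called in any of the 3 comparisons by limma. On median-ratio scaled values 1 was called higher in HFD against ND, where 11.6% of all genes were. No gene of the list reached 1 FPKM in every ND library. They passed the expression filter only with HFD and HLJDD libraries, so the count of higher genes is a description. H2-DMb2 was high in the same 6 libraries and low in the same 5. The part that such cells play in the levels of the members was not tested. Levels in HFD replicate 4 and HLJDD replicate 2 are given next as a description.

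In HFD replicate 4, where B lymphocyte markers were at ND level, H2-Aa stood at 31.9 FPKM, and the ND mean was 20.4 times that value. In HLJDD replicate 2 the ND mean was 26.6 times the value of H2-Aa. After median-ratio scaling these factors were 17.8 and 18.2. For H2-DMb1 the ND mean was 21.2 and 27.1 times the level in those libraries, for Cd74 17.5 and 19.6 times, and for H2-Eb1 11.8 and 15.7 times. Ciita itself was 9.01 and 12.1 times lower than the ND mean there, on 101 and 61 reads. The 7 members other than H2-DMb2 were thus lowest where B lymphocyte markers were as low as in ND, and each of these is a single library of its group. Macrophage markers were low in both libraries as well, and HLJDD replicate 2 had 40.7% mitochondrial reads. The comparison therefore does not set B lymphocytes apart.

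With the mean log2 level of the B lymphocyte list as a covariate, 7 of 8 members were lower in HFD against ND, against 6.6% of all genes called lower in that fit. H2-Aa fell by 3.96 (SE 0.27, adjusted p = 5.04e-05), Cd74 by 3.66 (SE 0.33, adjusted p = 0.000242), H2-DMb1 by 3.63 (SE 0.48, adjusted p = 0.0024) and Ciita by 1.35 (SE 0.25, adjusted p = 0.0094) in that limma fit. H2-DMb2 was not called, at 0.14 (adjusted p = 0.59). In HLJDD against ND the same 7 members were lower, with 5.53% of all genes called lower. There H2-Aa fell by 4.89 (SE 0.27, adjusted p = 1.35e-05) and Ciita by 1.52 (SE 0.25, adjusted p = 0.0058). In HLJDD against HFD no member was called, with 0 of all genes. The list level ran from 0.18 to 3.79 over HFD and HLJDD and from 0.19 to 0.40 in ND. The slope therefore came from HFD and HLJDD libraries, and its use for ND assumes the same slope there. Outside ND, only HFD replicate 4 (0.18) and HLJDD replicate 2 (0.40) lay near the ND range. The differences and adjusted p of this fit lean on those libraries and that slope, and are descriptions.

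**Figure D3:**
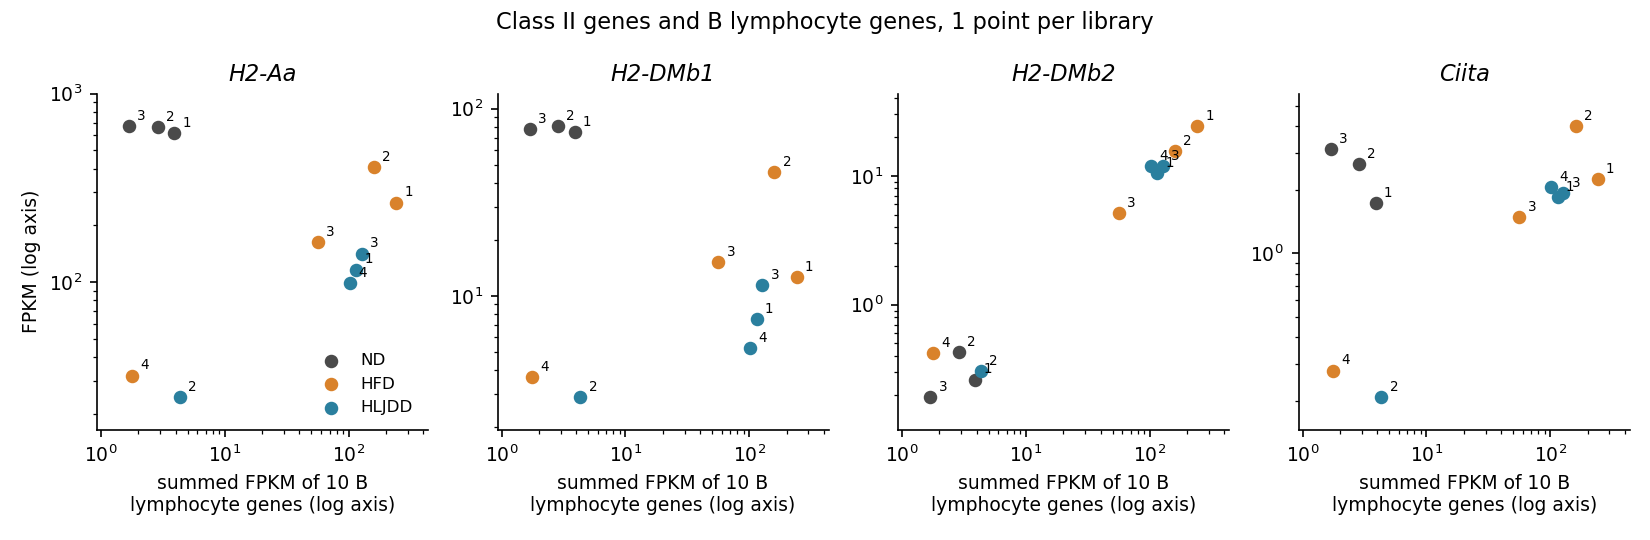
FPKM of H2-Aa, H2-DMb1, H2-DMb2 and Ciita against the summed FPKM of 10 B lymphocyte genes (both axes log), 1 point per library with its replicate number. For H2-Aa the 3 ND libraries sit at 618 to 673 with B lymphocyte sums under 4, while HFD replicate 4 and HLJDD replicate 2 have like sums and 31.9 and 24.5 FPKM.

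Some ratios between members within a library, which do not depend on scaling, differed between ND and the rest. These ratios were chosen after the values were seen and carry no test. H2-Eb1 per H2-Aa was 0.335 to 0.361 in ND, 0.473 to 0.598 in HFD and 0.495 to 0.587 in HLJDD. Cd74 per H2-Aa was 1.55 to 1.73 in ND, 1.91 to 2.13 in HFD and 1.83 to 2.22 in HLJDD. For both ratios the ND libraries lay below all others, and HFD and HLJDD overlapped. H2-Ab1 per H2-Aa did not set ND apart, at 0.765 to 0.812 in ND, 0.599 to 1.07 in HFD and 0.731 to 0.836 in HLJDD. H2-DMb2 made up 0.244% to 0.525% of the summed FPKM of the 2 beta chain genes of DM in ND. In HFD it made up 65.8%, 25.3%, 25.2% and 10.2%, and in HLJDD 58.1%, 9.63%, 51.2% and 69.3%. The ratio of H2-Aa to Ciita was 359, 252 and 215 in ND, 102 to 117 in HFD and 47.9 to 118 in HLJDD, in units that hold between libraries alone. H2-Aa, H2-Ab1, H2-Eb1 and Cd74 together took 0.297% to 0.347% of all reads in ND, 0.0195% to 0.240% in HFD and 0.0153% to 0.0843% in HLJDD.

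**Figure D4:**
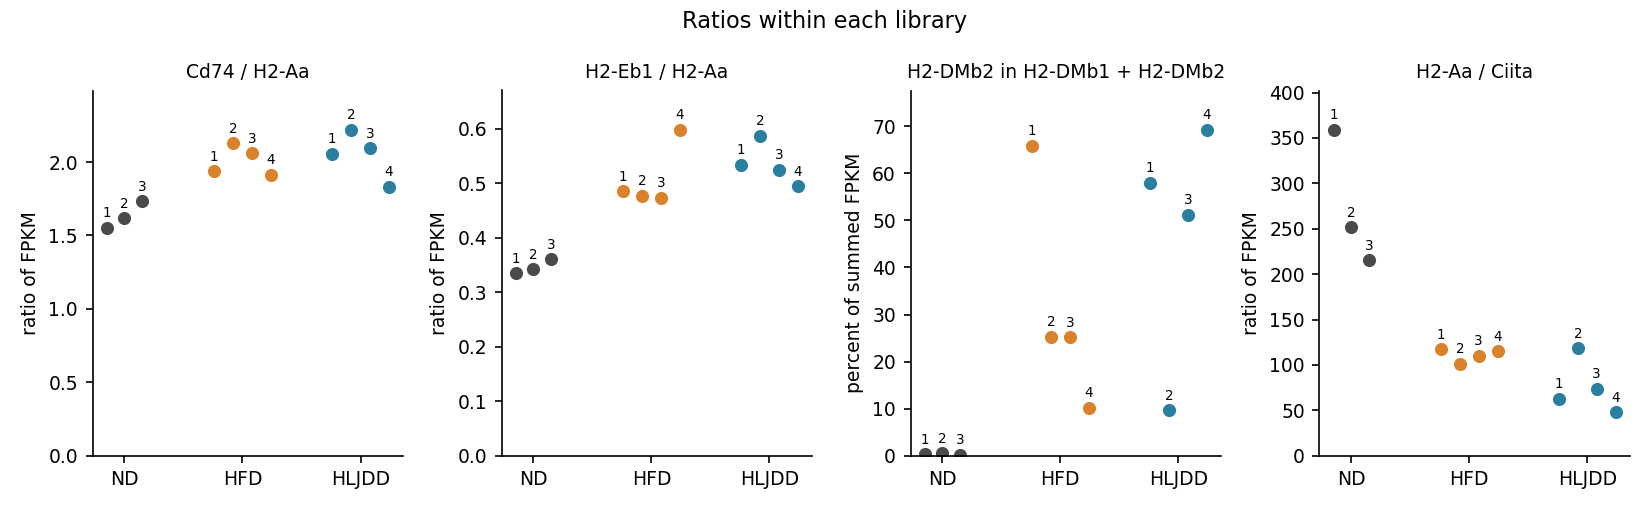
Ratios within each library, with replicate numbers: Cd74 to H2-Aa, H2-Eb1 to H2-Aa, the percent of H2-DMb2 in the summed FPKM of H2-DMb1 and H2-DMb2, and H2-Aa to Ciita. The ND libraries are lowest in the first 3 panels and highest in the last, at 215 to 359.

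Other class II chains had the pattern of H2-DMb2. H2-Oa stood at 0.163, 0.179 and 0.0881 FPKM in ND, at 9.07, 6.81, 2.66 and 0.264 in HFD, and at 4.79, 0.0816, 5.07 and 4.12 in HLJDD. H2-Ob and H2-Eb2 were likewise under 0.2 FPKM in ND, HFD replicate 4 and HLJDD replicate 2, and reached 11.5 and 4.67 FPKM elsewhere. 0 of these 3 chains were called in either comparison with ND (limma), with differences of 1.39 to 2.23 for HFD against ND and adjusted p of 0.0728 to 0.116. Without HFD replicate 4 all 3 were called higher in HFD against ND, at 1.89 to 2.98, and without HLJDD replicate 2 all 3 were called higher in HLJDD against ND, at 1.90 to 2.86. All 3 passed the expression filter through HFD and HLJDD libraries alone. Each library left out was the lowest of its group for them, so these calls are descriptions.

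Of the 7 promoter factors, Nfyb, a subunit of NF-Y, which binds the Y box, fell in both comparisons with ND, by 0.60 (limma, adjusted p = 0.0185) and 0.70 (adjusted p = 0.0105). Rfxank, a subunit of RFX, which binds the X box, rose by 0.49 in HFD against ND (adjusted p = 0.0292; 0.127 with the B lymphocyte covariate and 0.121 with equal sums), and its difference in HLJDD against ND was 0.41 (adjusted p = 0.0744). Rfx5, Rfxap, Nfya, Nfyc and Creb1 were not called. In the interferon gamma list, Socs1, a feedback inhibitor that the pathway induces, fell by 0.91 in HFD (adjusted p = 0.0029) and by 1.43 in HLJDD against ND (adjusted p = 0.00032). It stood at 3.03, 3.36 and 3.64 FPKM in ND, 1.76, 1.33, 1.37 and 0.881 in HFD and 0.463, 0.521, 0.983 and 0.526 in HLJDD, with every HFD and HLJDD library below ND. Of all genes, 32.9% lay below ND in this way in HFD and 21.3% in HLJDD. Ifng itself did not pass the expression filter, at no more than 0.07 FPKM in any library, and the receptor gene Ifngr1 was not called. Socs1 stayed called whichever library was left out. Nfyb lost its call in both comparisons without ND replicate 1 or 2, and Rfxank its call without ND replicate 1 or 2 or HFD replicate 1 or 3 (adjusted p up to 0.149 for these genes).

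In the endosomal list 3 of 9 genes tested fell in both comparisons. Over all genes, 11.5% were called lower in HFD and 7.79% in HLJDD against ND. Ctss, the cathepsin that finishes the trimming of the invariant chain, fell by 0.97 (limma, adjusted p = 0.0153) in HFD and 1.11 (adjusted p = 0.0095) in HLJDD against ND. Its mean level was 155 ± 11.7 FPKM in ND (SD, n = 3), 80.3 ± 19.0 in HFD (SD, n = 4) and 73.5 ± 20.2 in HLJDD (SD, n = 4), with no overlap with ND. Such a lack of overlap in the lower direction held for 32.9% of all genes in HFD and 21.3% in HLJDD. Lgmn, an asparagine endopeptidase, fell by 1.16 (adjusted p = 0.0056) and 1.10 (adjusted p = 0.0088). Sppl2a, which cleaves the last membrane stub of the invariant chain, fell by 0.59 (adjusted p = 0.0201) and 0.65 (adjusted p = 0.0146). On median-ratio scaled values the same number fell in each, with 1 gene of the list higher in HFD and 2 higher in HLJDD against ND. Of all genes, 11.4% were called lower and 11.6% higher in HFD on that scale, and 9.18% and 8.61% in HLJDD. Of the co-stimulatory genes, 2 passed the filter. Icosl rose by 1.20 in HFD against ND (adjusted p = 0.0228), though with the B lymphocyte covariate its difference was 0.54 (adjusted p = 0.156), and differed by 0.98 in HLJDD against ND (adjusted p = 0.0613), where it was called without HLJDD replicate 2 (1.31, adjusted p = 0.0035). Without ND replicate 1 or 2 the calls of Ctss and Sppl2a in HFD against ND and of Sppl2a and Lgmn in HLJDD against ND were lost, as was that of Ctss in HLJDD against ND without ND replicate 1 and that of Icosl in HFD against ND without any ND library or HFD replicate 1 (adjusted p up to 0.103). In HLJDD against HFD, 0 genes of any of these lists were called by limma.

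On the deposited scale no tested dendritic cell or macrophage marker was called by limma in any comparison. After median-ratio scaling 1 of the 7 macrophage markers tested was called higher in each comparison with ND. On that scale 11.6% of all genes were called higher in HFD and 8.61% in HLJDD, so this count is near the background. Dendritic cell markers summed to 1.29 to 2.20 FPKM in ND, 2.17 to 6.06 in HFD and 2.31 to 4.59 in HLJDD, with 0 of the 2 genes tested called. Ccr7 and Sirpa were the highest of these 10 genes. Macrophage markers, led by Lyz2 and C1qa, summed to 22.0 to 28.8 FPKM in ND, 20.3 to 87.6 in HFD and 20.5 to 90.9 in HLJDD, with 0 of 7 called. T lymphocyte markers, led by Cd3g and Cd8a, summed to 4.64 to 7.83, 4.61 to 10.3 and 4.01 to 6.90 FPKM, with 0 of 3 called. Epithelial markers had 0 of 8 called. Plasma cell markers, led by Jchain and Sdc1, summed to 73.4 to 89.1, 92.3 to 177 and 53.4 to 222 FPKM. Of the 4 plasma cell genes tested, Sdc1, which epithelium also carries, was called lower in both comparisons with ND. The 2 called higher in HFD against ND, where 5.06% of all genes were, were Mzb1 and Tnfrsf13b. Both passed the expression filter through HFD and HLJDD libraries alone, so their calls are descriptions. The part of these cells in the levels of the chains was not tested.

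Markers of gut region did separate ND from the rest. Distal small intestine markers summed to 10816, 7458 and 803 FPKM in ND, against 107 to 208 in HFD and 66.6 to 223 in HLJDD. Fabp6, the ileal bile acid binding protein, stood at 9821, 6702 and 397 FPKM in ND and at no more than 4.31 FPKM in any other library. Of the 7 distal genes, 6 were called lower in each comparison with ND by limma, against 11.5% of all genes in HFD and 7.79% in HLJDD. Slc10a2, called lower in both, passed the expression filter through ND libraries alone, so these counts are descriptions. Proximal markers, led by Fabp1 and Gata4, summed to 513, 1982 and 4437 FPKM in ND and to at least 8428 FPKM in every other library, a sum that is mostly Fabp1. Of the 6 proximal genes tested, 3 were called higher and 2 lower in HFD against ND, and 3 higher and 1 lower in HLJDD against ND. The shares of all genes called higher were 5.06% in HFD and 4.1% in HLJDD. Those called lower, named after their values were seen, were the iron transporters Slc40a1 in both (-1.96 and -1.85) and Slc11a2 in HFD (-0.72). Slc40a1 reached 1 FPKM only in the ND libraries and HLJDD replicate 2, so its calls and the counts of lower genes are descriptions. Onecut2, called higher in both, passed the expression filter through HFD and HLJDD libraries alone, so the counts of higher genes are descriptions. The stretch of gut and the group cannot be told apart across groups. Within ND, Fabp6 differed 9821 to 397 between replicates 1 and 3, and H2-Aa stood at 618 and 673 FPKM and Cd74 at 961 and 1166. Even ND replicate 3 was far above the 4.31 FPKM of Fabp6 reached elsewhere. The ND libraries therefore do not span the difference in these markers between groups. The part of gut region in the class II levels was not tested.

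Genes with the pattern most like the mean of the standardised members over the 11 libraries were Arhgap26 (Pearson 0.964, Spearman 0.955), Stx7 (0.939 and 0.936), Kpna4 (0.933 and 0.909), Crlf2 (0.927 and 0.873), Pls1 (0.923 and 0.891), Smndc1 (0.922 and 0.973), Mindy3 (0.92 and 0.846) and Vamp4 (0.915 and 0.927). Those most like Ciita alone were Rbm48 (Pearson 0.914, Spearman 0.909), Mif4gd (0.898 and 0.809), Arhgap26 (0.898 and 0.818), Cdc14a (0.883 and 0.691), Fbxl4 (0.871 and 0.746), Gtpbp6 (0.863 and 0.773), Plcg2 (0.858 and 0.5) and Tmem123 (0.853 and 0.6). These points share library scaling and group, HFD replicate 4 and HLJDD replicate 2 are low in all members, and no p is given. Arhgap26 was present in both lists, although the change of Arhgap26 itself was small, at -0.18 in HFD and -0.24 in HLJDD against ND, neither called.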

How the data were processed

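TRIzol extraction of total RNA and a VAHTS Universal V6 kit are recorded per the labels' protocols. The reads were handled with fastp, HISAT2, HTSeq and R 3.2.0 on mm10, per the submitters' processing notes. The annotation, the strand setting and further versions are not stated in those sources. The authors deposited FPKM per gene symbol and library, normalized to gene length and library total, in single files and in a table of all 11 libraries, and 267234 values were compared between them with 0 differences. Libraries were grouped by title. Because counting without strand cannot tell a gene from its antisense partner, and the strand setting is unknown, such overlaps are uncertain.

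From the FPKM, limma 3.58.1 in R 4.3.3 was run two-sided with a variance trend on log2(FPKM + 1), with genes of at least 1 FPKM in at least 3 libraries kept, all 11 libraries in 1 fit, no covariate, and Benjamini-Hochberg adjustment over all 10764 genes (threshold 0.05). Whole reads were recovered for 24294 of 24294 symbols (100%, within 0.01 reads, largest distance 0.0017) at 30100481 to 37940645 reads per library, and limma-voom on them called 1714 genes between HFD and ND, 1195 between HLJDD and ND and 0 between HLJDD and HFD. Other alternatives were a pseudocount of 0.1, no filter, a filter at a mean of 5 FPKM, equal sums, median-ratio scaling, a fit of the 2 groups alone, the replicate block, the B lymphocyte covariate, and leaving out libraries. The fit was tested on simulated data.

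The 8 members and the lists were chosen with earlier results of these data known. All members are named, of each pathway list the genes past the threshold, of each marker list up to 2 genes with the highest mean, and the 8 genes most alike in pattern. H2-Ea was not used here, and some genes of the lists are not reported here. Positions and promoters come from RefSeq GRCm38.p6, and transcript words of 50 bases from GENCODE M21. Python 3.11.15 with pandas 2.3.3 and matplotlib 3.10.9 made the tables and figures.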

Additional observations from a re-analysis of the deposited data

Results flagged for a closer look

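In the HLJDD group, 1 library lay far from the other 3 for 2 of the 8 members. H2-DMb2 stood at 0.306 FPKM in HLJDD replicate 2, against 10.4 to 11.95 FPKM in the other HLJDD libraries. The gap was 0.870 of the range of the group, above Dixon's 95% critical value for 4 samples. Ciita stood at 0.207 FPKM in the same library, against 1.85 to 2.06 FPKM in the others, with a gap of 0.888 of the range. HLJDD replicate 2 also had the highest mitochondrial share, at 40.7% of reads, and a B lymphocyte marker sum of 4.31 FPKM, against 102 to 128 in the other HLJDD libraries. Their part in these values was not tested. The check covered 16 pairs of gene and group, of which 2 passed, and chance passes about 1 in 20.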

How the results depend on the processing

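The count of members called lower or higher in HFD against ND, 1, was 0 with no filter, 2 in a fit of the 2 groups alone, 7 with the B lymphocyte covariate, 3 without HFD replicate 1 and HLJDD replicate 2, and 0 to 4 when leaving out 1 library. In HLJDD against ND, 6 members became 1 with no filter, 2 with the replicate block and 1 to 7 leaving out 1 library. Over all genes, the 1786 called in HFD against ND became 1145 with equal sums, 1080 with the replicate block, 950 with the B lymphocyte covariate, 3352 without HFD replicate 1 and HLJDD replicate 2, and 664 to 3317 leaving out 1 library. The 1279 of HLJDD against ND became 724, 798 and 2575 under the replicate block, that covariate and without those 2 libraries, and 470 to 1696 leaving out 1 library. In HLJDD against HFD, 0 genes became 1 without HFD replicate 1 and HLJDD replicate 2, and 0 to 1 leaving out 1 library; 0 members were called under every alternative run. In HLJDD against HFD, uncalled signs turned without HFD replicate 1 and HLJDD replicate 2 (H2-DMb2 1.25, Ciita 0.23) and leaving out 1 library (H2-DMb2 -0.95 to 0.68, Ciita -0.54 to 0.14). With the B lymphocyte covariate H2-Eb2 was -0.14 in HFD and -0.13 in HLJDD against ND, and H2-Oa -0.066 in HLJDD against ND. The cause was not tested. Replicate numbers are shared between groups, but correlations of same-numbered deviations ran from -0.219 to 0.366. They were over 0.1 in 0 of 3 pairs of HFD with ND, 0 of 3 of HLJDD with ND and 3 of 4 of HLJDD with HFD, where the pair of number 1 had -0.185. Of the libraries with a number in common, 1 of 6, 0 of 6 and 2 of 8 correlated best with their own number. The numbers were therefore not taken to pair the libraries. Low reads limit H2-DMb2 in ND (10 to 22 reads).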
